A study of Mus musculus with 6 samples.

Results

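The mitochondrial respiratory chain genes of mouse CD4+ T cells (helper T lymphocytes) kept in culture are described here complex by complex. Members were taken by gene symbol from an oligonucleotide array of 45101 probe sets, where a probe set is a group of short probes that reports 1 transcript. A probe set counted if the platform annotation gave it exactly 1 symbol, beginning with Nduf, with Sdh and a letter from a to d, with Uqcr, with Cox and a digit from 4 to 8, or with Atp5. This found 185 probe sets of 94 genes, out of 18193 genes that had such a probe set, and each gene was represented by the probe set with its highest mean log2 signal over the 6 arrays. The 94 genes were 42 of complex I, 8 of complex II, 8 of complex III, 19 of complex IV and 17 of complex V. By role, 74 encode standing subunits, 12 encode assembly factors caught by the same prefixes (8 Ndufaf and 4 Sdhaf genes), and 8 encode alternative subunit forms of complex IV. Another 10 probe sets whose annotation joins such a symbol to further symbols were left unnamed.

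The respiratory chain sits in the inner mitochondrial membrane, where complexes I and II take electrons from NADH and succinate and pass them through ubiquinone to complex III, and from there through cytochrome c to complex IV, which reduces oxygen. Complexes I, III and IV pump protons, and complex V, the ATP synthase, uses the proton gradient to make ATP. Activated T cells take up glucose and run glycolysis at a high rate while they also enlarge their mitochondria, so both routes of ATP supply are studied in these cells. Most subunits are encoded in the nucleus, and the genes listed here are of that kind.

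RNA came from CD4+ T cells of spleen and of peripheral and mesenteric lymph nodes, grown in vitro, and was hybridised to 6 arrays in 3 groups of 2. The groups were RA (retinoic acid, the derivative of vitamin A that the title of the series names), Ro (a label that is not spelled out, written RO for replicate 2) and Control. A culture recipe is attached to Control replicate 2 alone: IL-2, TGF-b1, IL-6, IL-1b, IL-23, IL-21 and TNF-a with antibodies to IL-4 and IFN-gamma, for 5 days. Dose and time of RA and Ro, mouse strain, age and sex, pooling of animals, and whether replicates were separate cultures are absent from the labels. A p-value therefore covers only the spread among these samples, and that spread may be technical.

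Control replicate 2 stood apart from the other 5 arrays before any respiratory chain gene was considered. Its log2 values correlated with theirs at 0.911 to 0.917 over all probe sets, whereas the other 5 arrays correlated with each other at 0.961 to 0.972. The signals of Cd4, which marks helper T cells, and of Cd3e and Cd3g, which mark T cells in general, were present on all 6 arrays. Cd4 was at 1308 and 1141 in RA, 1387 and 1791 in Ro, and 1476 and 463 in Control. Mki67, a gene of dividing cells, had a signal of 299 on Control replicate 2 and 2222 to 5196 elsewhere, and Eif2s3y, a Y-linked gene, 0.972 against 747 to 967. Xist, the RNA expressed from the inactive X chromosome, had signals of 13.1 and 19.6 in RA, 22.7 and 13.4 in Ro, and 680 and 4326 in Control, so Control replicate 1 also stood apart from the RA and Ro arrays in that gene. The summed signal of 6 mast cell and basophil markers was 154 on Control replicate 2 and 1290 to 5517 on the others. That of 6 measured macrophage and dendritic cell markers was 150 on Control replicate 2, 1631 on Control replicate 1 and 359 to 976 on the RA and Ro arrays. The ratio of 3' to 5' probe sets, a sign of RNA quality, was 0.986 for Gapdh on Control replicate 2 and 0.787 to 0.842 elsewhere. The part of these differences in the results below was not tested. For comparisons with Control the main counts and medians, and most of the main genes, are also given against Control replicate 1 alone. Array medians ran from 16.2 to 23.7 arbitrary units. Precision is limited throughout by the small number of arrays.

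Of the 94 genes, 90 lay above the 40th percentile of their array on at least 2 arrays, and 88 did so on all 6. The 4 that did not were Ndufb4 of complex I, whose remaining named probe set had signals of 4.78 to 13.8, and Cox7b2, Cox8b and Ndufa4l2 of complex IV, 3 alternative forms that were dim on every array. A signal and a level are used from here on. A signal is the deposited intensity in arbitrary units. A level is log2(signal + 3.00) minus the median of the same quantity on that array, so a difference of 1 between levels is a 2-fold change against the array median. Levels of different genes come from different probes and are not set against each other. In such cultures, fewer cells of a type and less of a transcript per cell cannot be told apart.

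The upstream sequences of 4 genes are shown because these genes marked the extremes of Control replicate 2, the array that stood apart. Ndufaf4 and Cox5a lay furthest above, and Cox7a2l and Cox7c furthest below, their own means over the other 5 arrays, among genes whose several probe sets gave the same sign and which had 1 listed promoter. The sequences are from RefSeq (GRCm38.p6), run 5' to 3' on the gene's strand, and hold 250 bases before and 50 after the transcription start. Capitals mark matches to a GC box (GGGCGG) or to the 8-base core of the NRF-1 site (GCATGCGC), on either strand.
Ndufaf4, a complex I assembly factor, chr4:24897833-24898132, plus strand:
Ndufaf4: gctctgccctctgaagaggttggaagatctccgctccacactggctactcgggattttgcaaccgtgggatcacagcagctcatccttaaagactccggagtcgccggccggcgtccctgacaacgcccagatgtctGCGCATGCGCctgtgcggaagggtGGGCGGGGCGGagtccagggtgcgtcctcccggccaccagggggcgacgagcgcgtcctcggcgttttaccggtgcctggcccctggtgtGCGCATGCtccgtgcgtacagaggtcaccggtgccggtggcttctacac
Cox5a, a complex IV subunit, chr9:57520982-57521281, plus strand:
Cox5a: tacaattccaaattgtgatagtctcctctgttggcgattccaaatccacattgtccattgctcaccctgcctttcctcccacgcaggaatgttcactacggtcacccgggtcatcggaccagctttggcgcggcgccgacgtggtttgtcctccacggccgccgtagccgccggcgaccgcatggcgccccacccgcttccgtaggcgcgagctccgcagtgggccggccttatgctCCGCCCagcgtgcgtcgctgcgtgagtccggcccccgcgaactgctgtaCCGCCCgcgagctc
Cox7a2l, a factor that ties complex III to complex IV, chr17:83514284-83514583, minus strand:
Cox7a2l: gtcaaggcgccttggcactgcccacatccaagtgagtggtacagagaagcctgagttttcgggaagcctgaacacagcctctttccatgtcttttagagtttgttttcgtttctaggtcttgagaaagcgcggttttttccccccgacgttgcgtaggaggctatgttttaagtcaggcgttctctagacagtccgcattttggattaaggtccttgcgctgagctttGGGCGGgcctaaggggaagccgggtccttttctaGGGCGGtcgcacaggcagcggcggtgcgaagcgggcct
Cox7c, a complex IV subunit, chr13:86046746-86047045, minus strand:
Cox7c: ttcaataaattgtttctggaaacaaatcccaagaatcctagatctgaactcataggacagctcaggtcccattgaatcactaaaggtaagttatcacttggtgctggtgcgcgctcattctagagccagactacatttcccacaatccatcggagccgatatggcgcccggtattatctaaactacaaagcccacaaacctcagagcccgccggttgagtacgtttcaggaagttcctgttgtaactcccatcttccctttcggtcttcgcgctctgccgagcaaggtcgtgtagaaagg

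The Ndufaf4 promoter held 3 NRF-1 cores, of which 2 overlap on opposite strands, and 2 GC boxes. Cox5a and Cox7a2l held 2 GC boxes each, and Cox7c held no match. NRF-1, the ETS factor GABP and YY1 are known activators of nuclear genes for mitochondrial proteins, which is why these motifs were looked for. Over the 83 promoters found for 78 of the 94 genes, the NRF-1 core occurred in 13.3%, against 2.71% of all 32851 promoters of the same length. The ETS core CCGGAAG occurred in 26.5% against 8.86%, the YY1 core AAGATGGCG in 8.43% against 1.40%, and the GC box in 48.2% against 35.7%. Both strands were searched, and none of the 4 motifs contains another, so a base is counted for more than 1 motif only where matches overlap at their ends. A match describes the letters in this window and is not evidence of binding in these cells.

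In centred levels, most respiratory chain genes differed the same way between the arrays of a group. The median level of the 94 genes was 6.25 and 5.92 on the RA arrays, 6.11 and 6.01 on the Ro arrays, and 5.72 and 6.31 on the Control arrays. RA replicate 1 was above RA replicate 2 for 89 of 94 genes, with a median gap of 0.33, whereas it was above for 53.9% of all genes. The gap depended on the scaling, at 0.14 (77 of 94 genes) after quantile normalization and 0.13 (72 of 94) in the values as deposited. Ro replicate 1 was above Ro replicate 2 for 67 of 94, against 48.8% of all genes. Control replicate 1 was above Control replicate 2 for 8 of 94, against 49% of all genes, and was the lowest of the 6 arrays for 65 of 94, against 21.2%. Control replicate 2 was the highest of the 6 for 52 of 94, against 28.3% of all genes, and the lowest for 7, against 38.7%. After quantile normalization it was the highest for 55 of 94, against 35.5% of all genes. In the values as deposited it was the highest for 36, against 17.6% of all genes, and the lowest for 29. The median gap there, Control replicate 2 minus Control replicate 1, was 0.12, against -0.45 over all genes. In centred levels that gap was 0.59, against 0.02 over all genes. It was larger than the median difference of the 94 genes in each of the 3 comparisons below.

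**Figure D1:**
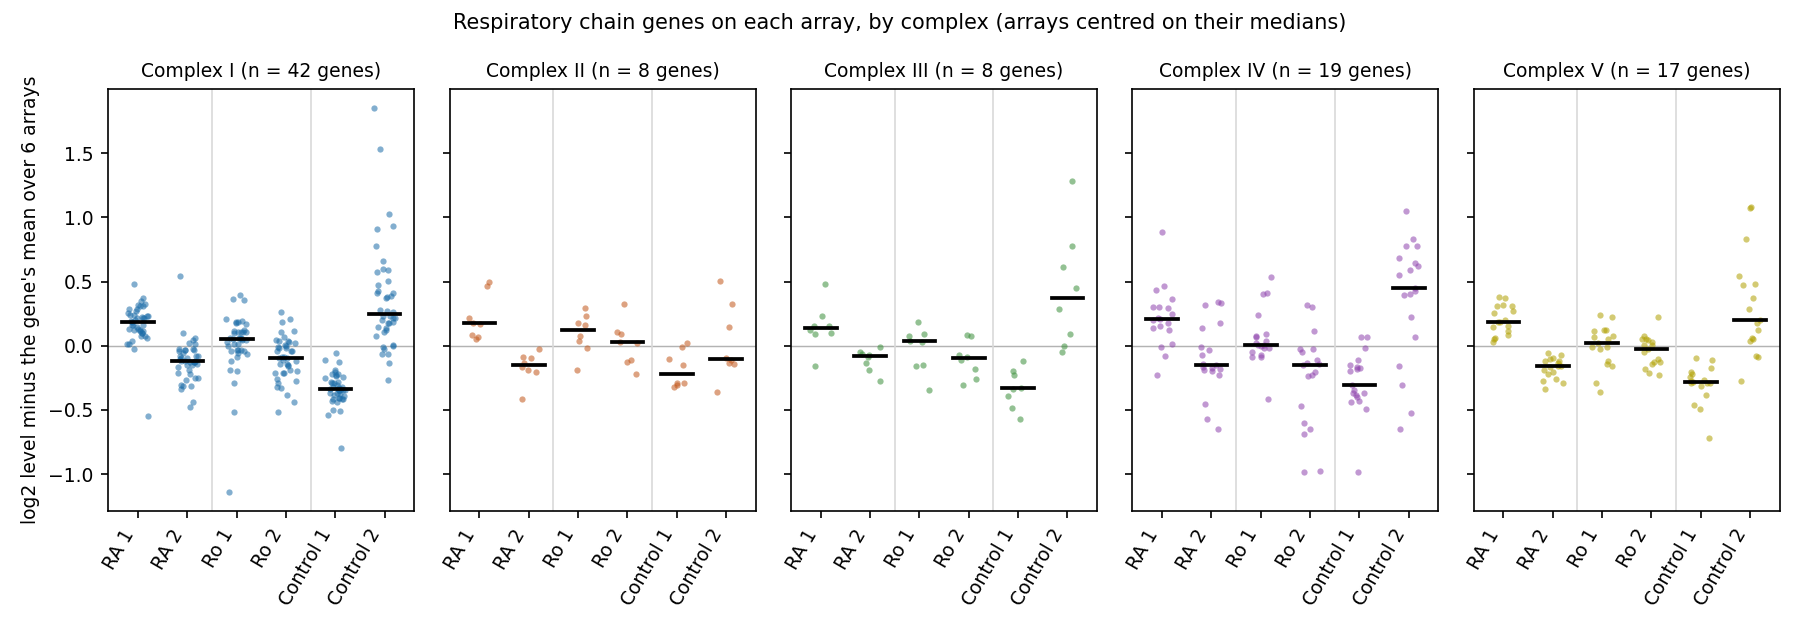
Each point is 1 gene, and the vertical axis gives its level (log2) on an array minus its own mean over 6 arrays, with a bar at the median of each complex. The Control 1 medians lie lowest in every complex (-0.34 to -0.22), and the Control 2 medians lie highest in complexes I, III, IV and V (0.20 to 0.45) but at -0.10 in complex II.

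The spread of Control replicate 2 was uneven over the complexes. Its median excess over Control replicate 1 was 0.77 for complex IV, 0.73 for complex III, 0.58 for complex I, 0.49 for complex V and 0.18 for complex II. After quantile normalization, which forces all arrays to 1 distribution, the same gaps were 0.33, 0.34, 0.41, 0.11 and 0.23, so the order of the complexes depended on the scaling. The values of single genes show both directions. Ndufaf4, which helps to build the arm of complex I that binds ubiquinone, had signals of 127 and 211 in RA, 92.9 and 257 in Ro, and 190 and 634 in Control. Cox5a had 2841 and 2621 in RA, 2857 and 2676 in Ro, and 2394 and 4157 in Control. Both were highest on Control replicate 2. Cox7a2l had 3986 and 4080 in RA, 3602 and 4756 in Ro, and 3859 and 1911 in Control. Sdha, the flavoprotein of complex II that oxidises succinate, had 1549 and 1552 in RA, 1790 and 1734 in Ro, and 1648 and 993 in Control. For these genes Control replicate 2 was the lowest array, by level as well as by signal.

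Above their means over the other 5 arrays, Control replicate 2 stood highest for Ndufaf4 (2.22), for Ndufb1, a small membrane arm subunit of complex I (1.83), and for Uqcrq, a small subunit of complex III (1.54). Atp5g1, which encodes the c subunit of the rotor ring of complex V, stood 1.30 above, and Ndufv3, an accessory subunit beside the NADH-binding site, 1.23 above. Below their means stood Cox7a2l (-0.78), Cox7c (-0.62), Sdha (-0.44), the complex IV subunit Ndufa4 (-0.36), the ATP synthase alpha subunit Atp5a1 (-0.33) and Ndufa9, which lies near the ubiquinone site of complex I (-0.32). Several probe sets measured 50 of the genes, and for 33 of these all of a gene's probe sets placed Control replicate 2 on the same side. They did so for Cox7a2l (-0.78 to -0.41), Sdha (-0.44 to -0.28), Ndufaf4 (1.51 to 2.22), Cox5a (0.93 to 1.15) and Atp5d (0.66 to 1.00). They did not for Uqcrq (-0.36 to 1.54), Atp5a1 (-0.33 to 1.12), Ndufab1 (-0.46 to 1.65) or Ndufa12 (-0.07 to 1.12). The direction of these genes rests on the choice of probe set. Differences between groups were less settled for some genes. All probe sets of a gene gave 1 sign for 26 of the 50 in RA minus Ro. They did so for 32 in RA minus Control and 32 in Ro minus Control.

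**Figure D2:**
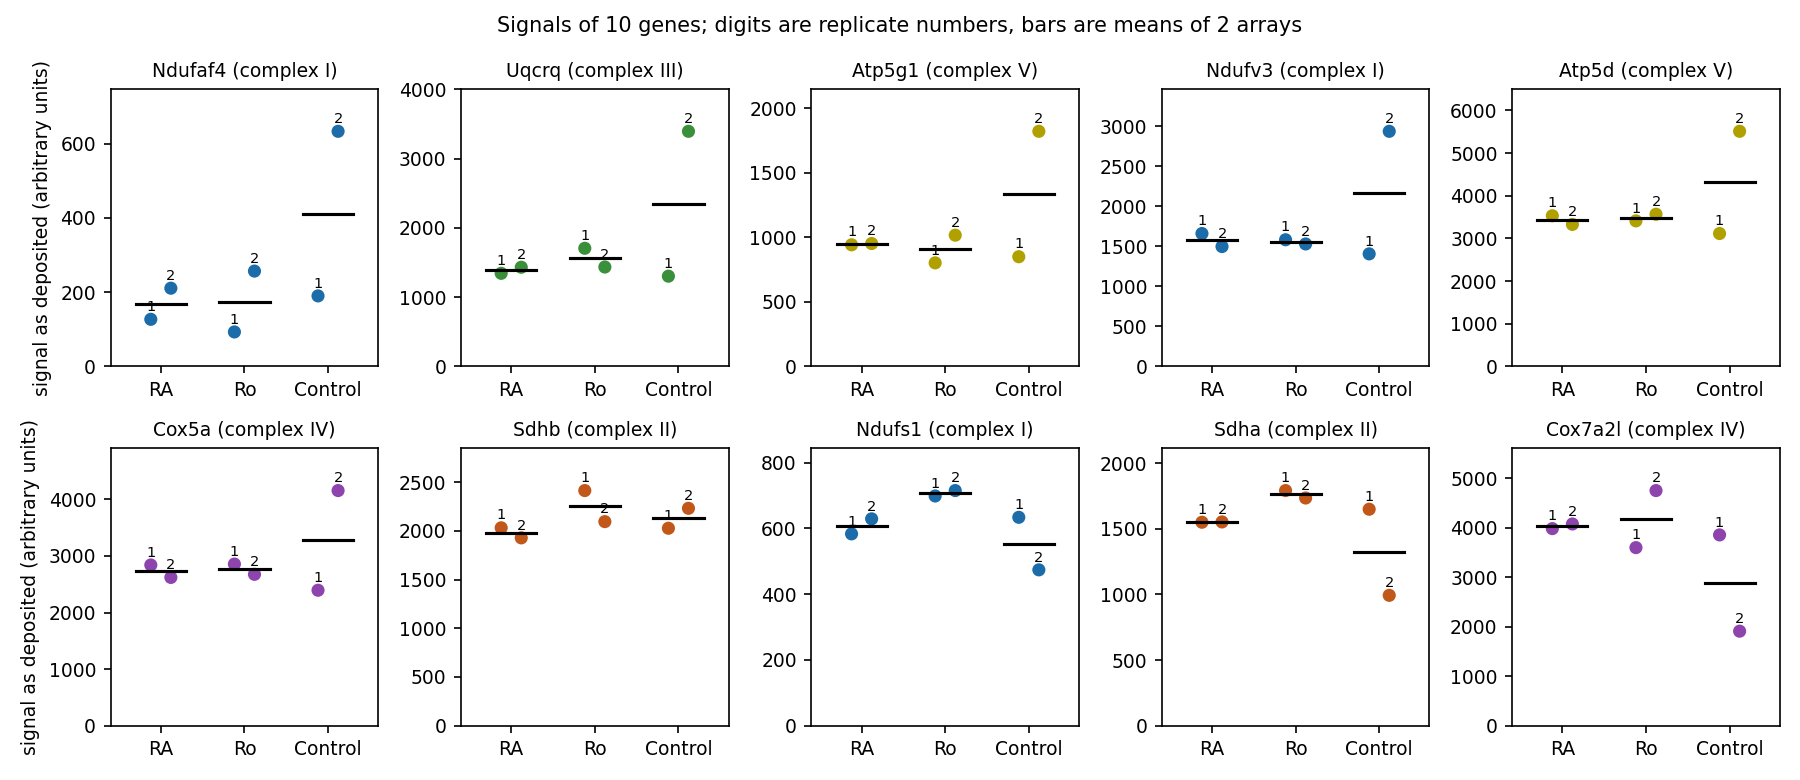
Deposited signals (arbitrary units, linear axis from 0) of 10 genes in RA, Ro and Control, with replicate numbers at the points and bars at the mean of 2 arrays. Control replicate 2 is the highest point for Ndufaf4 (634), Uqcrq (3395), Atp5g1 (1823), Ndufv3 (2939), Atp5d (5511) and Cox5a (4157), and the lowest for Ndufs1 (474), Sdha (993) and Cox7a2l (1911).

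The comparison of RA with Ro sets the cells labelled with retinoic acid against those labelled Ro, and no Control array enters it. The summed signal of the 6 mast cell and basophil markers was 1478 and 1290 in RA, against 5517 and 3636 in Ro, without overlap, while that of the 9 measured T cell markers was 30662 and 28861 in RA, against 30046 and 35841 in Ro. The part of the mast cell and basophil difference in the values that follow was not tested. In centred levels most respiratory chain genes differed little between these groups. Their median difference, RA minus Ro, was 0.08 on the log2 scale, while the median over all 12292 genes tested was -0.14. After quantile normalization the median difference of the 94 genes was 0.20, and with a common trimmed mean it was 0.26. The centred difference was under 0.5 in size for 91 of 94 genes, against 78.4% of all genes. That share was not matched for signal, and all genes tested hold more dim ones. A filter at the 60th percentile kept 88 of the 90 members but 18482 of the 27900 probe sets. The contrast may therefore not be particular to this list. In limma, fitted to the 4 RA and Ro arrays with Benjamini-Hochberg adjustment over 27900 probe sets, 0 of 90 members passed an adjusted p of 0.05, and 0 had an unadjusted p under 0.05. Of all probe sets 0.0287% passed the first and 6.13% the second. The lowest adjusted p among members was 0.816, and the median SE of a member was 0.22. The 95% interval of the difference lay within a 2-fold change in either direction for 84 of 90 genes, including all 8 of complex II, all 8 of complex III and all 17 of complex V.

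Both RA arrays were above both Ro arrays for 7 of 94 genes, against 7.96% of all genes, and below both for 4, against 32.3%. Ndufb4 and Ndufa4l2 among those above, and Cox7b2 among those below, did not pass the signal filter that the genes behind these percentages passed. In complex I, Ndufs1, the largest iron-sulfur subunit, had signals of 583 and 629 in RA, against 698 and 715 in Ro. Its difference was -0.13 (SE 0.21, limma adjusted p = 0.933). Ndufs3, a core subunit of the ubiquinone-binding module, had 1329 and 1330 in RA, against 1549 and 1582 in Ro, a difference of -0.14 (SE 0.20). These are the core subunits of complex I whose RA arrays both lay below the Ro arrays. Ndufs7, the iron-sulfur subunit next to the ubiquinone site, had 1154 and 1239 in RA, against 1152 and 1221 in Ro. Its RA levels lay above by 0.11 (SE 0.20) once the arrays were centred. Its 2 probe sets gave -0.08 and 0.11, so its direction rests on the choice of probe set. Ndufaf5, the assembly factor known to modify Ndufs7, had 103 and 75.6 in RA, against 116 and 125 in Ro, a difference of -0.34 (SE 0.30). Ndufaf2, which assists a late step of complex I assembly, had 99.1 and 113 in RA, against 88.8 and 108 in Ro, and Ndufa13, an accessory subunit, 2102 and 2311 in RA, against 2081 and 2355 in Ro. Signals of both overlapped between the groups, and only their centred levels did not.

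In complex II all 4 subunits had lower mean levels in RA with the probe sets used. The differences ran from -0.19 (Sdhc, a membrane anchor) to -0.01 (Sdhd, the other anchor), and for all 4 the arrays of the groups overlapped. The 3 probe sets of Sdha gave -0.09 to 0.19, so its sign rests on the choice of probe set. Sdhb, the iron-sulfur subunit, had signals of 2031 and 1928 in RA, against 2413 and 2094 in Ro. After quantile normalization all 8 complex II genes had a difference above 0 instead, so the direction depended on the scaling. Sdhaf1, which helps to insert iron-sulfur clusters into Sdhb, had 495 and 519 in RA, against 466 and 519 in Ro. In complex III, Uqcr11, a small subunit, had 831 and 843 in RA, against 680 and 851 in Ro, with a difference of 0.23 (SE 0.22). Uqcrfs1, the Rieske iron-sulfur protein, had 2814 and 2305 in RA, against 2551 and 1991 in Ro, and its arrays overlapped. Its difference of 0.27 (SE 0.25, limma adjusted p = 0.863) did not pass the test.

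In complex IV all 11 standing subunits had a positive difference with the probe sets used, from 0.05 to 0.19, each with overlap of the arrays. Other probe sets of Cox5a, Cox5b and Cox6c reached negative differences, down to -0.24, -0.38 and -0.02. Those of Cox6a1, Cox6b1, Cox7a2, Cox7a2l, Cox7c and Cox8a were all positive. For these 3 genes the sign rests on the choice of probe set. The sign of the 11 also depended on the scaling. In the values as deposited 6 of the 11 had a negative difference, while after quantile normalization all 11 were positive and 9 lay above without overlap. Cox4i1, the subunit through which ATP regulates the enzyme, had 4846 and 4261 in RA, against 4595 and 4773 in Ro. The alternative forms varied more. Cox6b2, the testis form of Cox6b1, had signals of 182 and 80.8 in RA, 101 and 56.7 in Ro, and 113 and 156 in Control. Its difference between RA and Ro, 0.75 (SE 0.50, limma adjusted p = 0.816), had the smallest p of any member, and its arrays overlapped. It was the member called when Ro replicate 1 was left out, at 1.20 (SE 0.37, adjusted p = 0.0383), in a fit that called 3.45% of all probe sets and assumes that the lone Ro array varies like the RA arrays. In complex V no gene had groups without overlap. Atp5b, the catalytic beta subunit, had 3801 and 3511 in RA, against 4265 and 3725 in Ro, and the 3 c ring genes Atp5g1, Atp5g2 and Atp5g3 differed by 0.03 to 0.16.

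**Figure D3:**
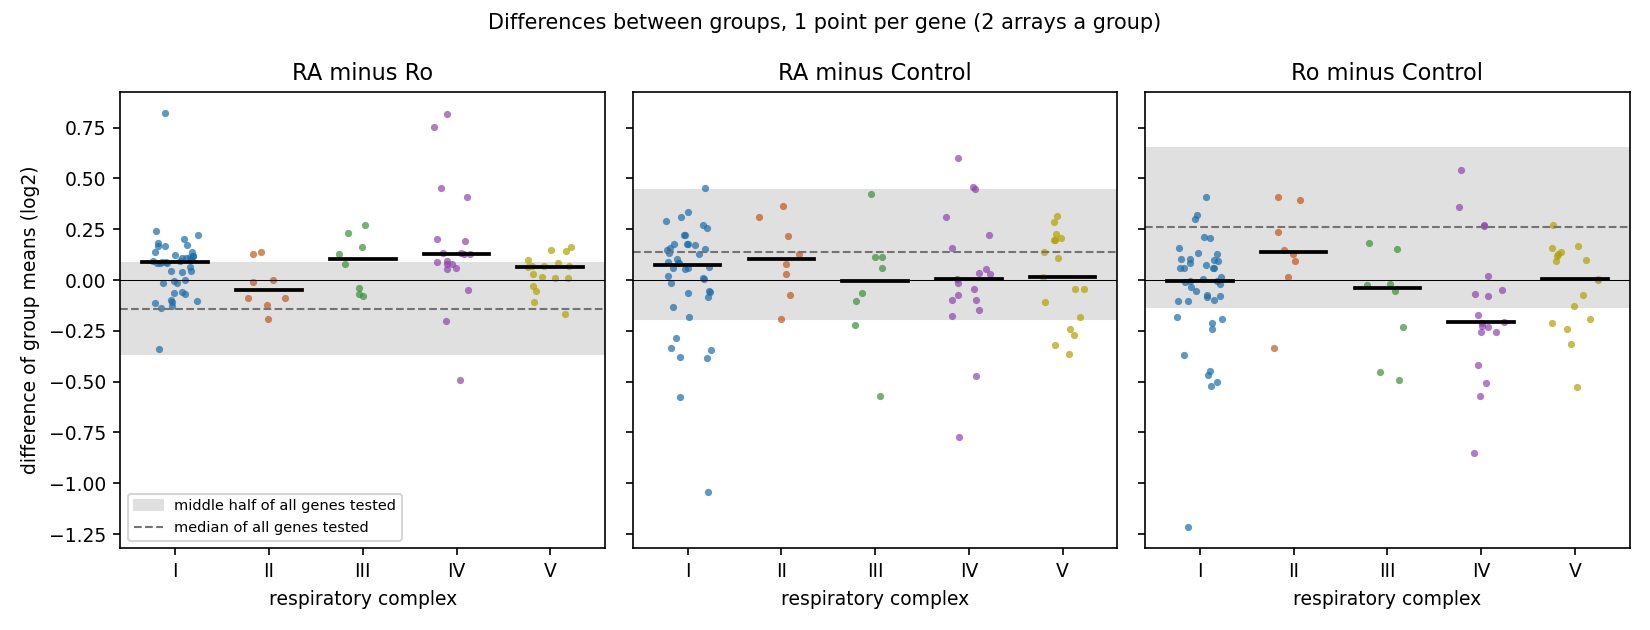
Each point is the difference of group mean levels (log2) of 1 gene, by complex, with black bars at the median of a complex, a dashed line at the median of all genes tested and a grey band over the middle 50% of them. In RA minus Ro the members cluster near 0.08 above a background at -0.14, and in Ro minus Control near -0.02 below a background at 0.26.

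The scaling of the arrays set the sign of the list's difference between RA and Ro. Beside all genes, the list stood higher under each of the 4 scalings. Mean RA values were higher for 65 of 94 genes in centred levels (33.3% of all genes) and for 90 after quantile normalization (49.9%). They were higher for 37 in the values as deposited (24%) and for 90 with a common trimmed mean (52.5%). RA arrays were above Ro arrays without overlap for 53 of 94 genes after quantile normalization (16.4% of all genes), for 56 after scaling to a common trimmed mean (18.3%), and for 2 in the values as deposited (5.81%). They were below without overlap for 1, 1 and 20 of 94 in these settings (16.8%, 15.2% and 39% of all genes). The median difference was 0.20, 0.26 and -0.01, against -0.0006, 0.04 and -0.22 over all probe sets tested. Limma called 0 members under each of these scalings. Under all 4 scalings the RA arrays stayed above for 2 of 94 genes, Ndufa4l2 and Ndufb4, against 5.51% of all genes, and below for 1, Cox7b2, against 14.2%. These are genes too dim to pass the filter on low signals, so none of the 90 that passed it kept 1 direction without overlap. Ndufs1 shows the reversal in a single gene: its RA arrays lay below its Ro arrays in levels and in deposited signals, and above them after quantile normalization, at 0.06.

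**Figure D4:**
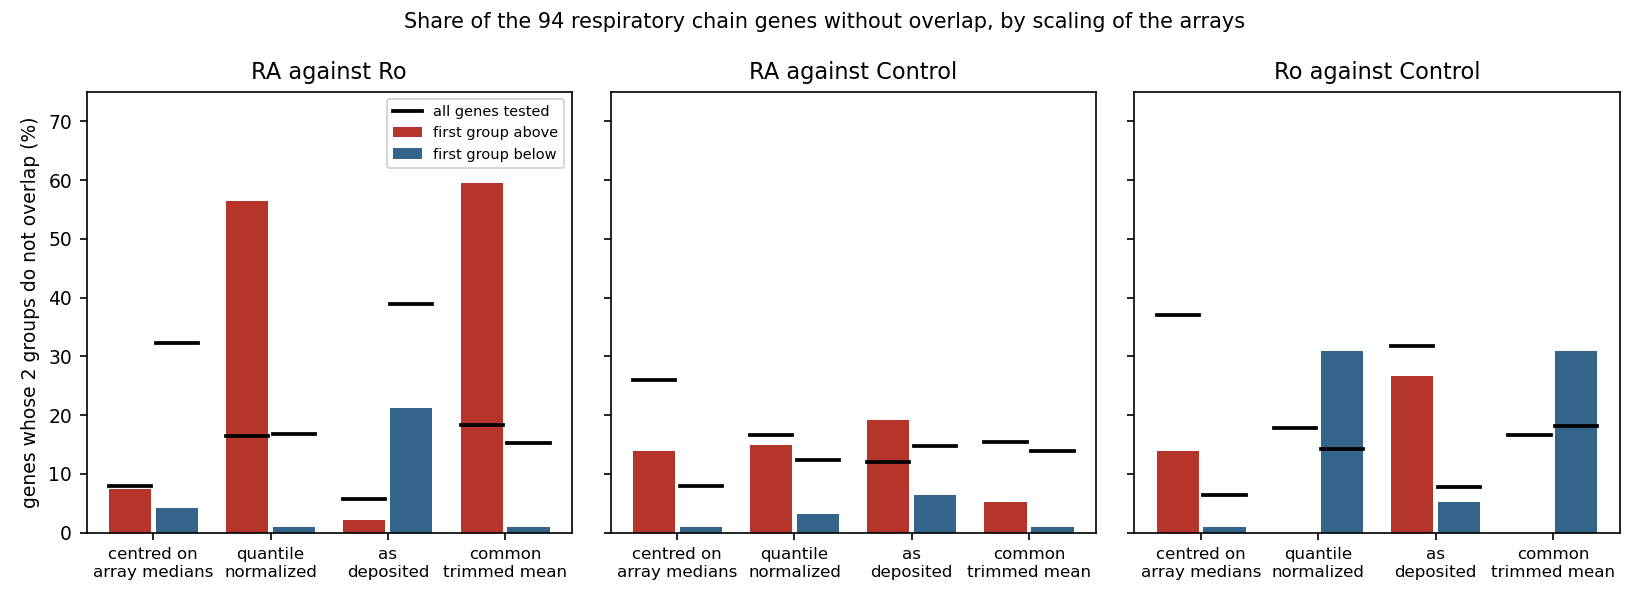
Bars give the percentage of the 94 genes whose first-named group lies wholly above (red) or wholly below (blue) the second under 4 scalings of the arrays, and black lines the same percentage of all genes tested. In RA against Ro the red bar stands for 7 genes in centred levels and 53 after quantile normalization, and in Ro against Control the red bar for 13 genes gives way to a blue bar for 29.

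The comparison of RA with Control sets the retinoic acid arrays against 2 Control arrays that were far apart, and it shares the RA arrays with the comparison above. The median difference of the 94 genes, RA minus Control, was 0.06, against 0.14 over all 12356 genes tested. For 89 of 94 genes it was under 0.5 in size, against 66% of all genes, again not matched for signal. Limma, fitted to all 6 arrays, called 0 of 90 members and 0% of 29531 probe sets, and at an unadjusted p under 0.05 there were 0 members and 2.46% of probe sets. The lowest adjusted p among members was 0.864, the median SE 0.33, and the 95% interval lay within a 2-fold change for 56 of 90. RA arrays were above Control arrays without overlap for 13 of 94 genes (26% of all genes) and below for 1 (8.04%). After quantile normalization these counts were 14 above (16.7%) and 3 below (12.4%), in the values as deposited 18 (12%) and 6 (14.7%), and with a common trimmed mean 5 (15.4%) and 1 (13.9%). Against Control replicate 1 alone, mean RA levels were higher for 92 of 94 genes, with a median of 0.34, and against Control replicate 2 alone for 31 of 94, with a median of -0.24, while 67.1% and 55% of all genes were higher. Both RA arrays were above Control replicate 1 for 80 of 94 genes (49.1% of all genes) and below it for 1 (17.4%). After quantile normalization they were above it for 61 (37.1%) and below it for 5 (26%). Without Control replicate 2 the 95% interval lay within a 2-fold change for 45 of 90.

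Cox7a2l, which is known to join complexes III and IV into supercomplexes, was the gene above the filter whose RA arrays lay above the Control arrays under all 4 scalings, something found for 8.75% of all genes. Its levels were 7.59 and 7.42 in RA, against 7.18 and 6.64 in Control, and the 2 RA arrays were above both Control arrays. The difference was 0.60 (SE 0.30, 95% interval -0.10 to 1.30, limma adjusted p = 0.864), so it did not pass the test. Against Control replicate 1 alone it was 0.33. Its 3 probe sets gave 0.40 to 0.60, and the probe set used is of a kind that can also bind related transcripts. In the other direction Cox7a1, the heart and muscle form of a complex IV subunit, lay below under all 4 scalings (6.39% of all genes), with dim signals of 14.4 and 11.3 in RA, against 21.9 and 27.5 in Control. Its difference was -0.77 with both Control arrays and -0.39 against Control replicate 1 alone.

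Among electron carriers, Uqcrfs1 had signals of 2814 and 2305 in RA, against 2070 and 1813 in Control, a difference of 0.43 (SE 0.31), without overlap in levels. Sdha differed by 0.31 (SE 0.27), and its deposited signals did overlap between these groups. Ndufa4 had 1846 and 1506 in RA, against 1526 and 1008 in Control, a difference of 0.46 (SE 0.29), again without overlap in levels. Each of these differences was under 1 on the log2 scale and failed the limma test. Against Control replicate 1 alone they were 0.57 for Uqcrfs1, 0.18 for Sdha and 0.40 for Ndufa4. Without Control replicate 1, limma called 5 members, all lower in RA: Uqcrq (-1.49, SE 0.26, adjusted p = 0.0165), Ndufb1 (-1.74), Atp5g1 (-1.15), Ndufv3 (-1.10) and Atp5d, the delta subunit of complex V (-0.89). That fit assumes that the lone Control array varies like the others, and it called 4.06% of all probe sets as lower and 7.56% as higher, with 0 members among the higher. Without Control replicate 2, 0 members were called, and 0% of all probe sets.

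The comparison of Ro with Control shares the Control arrays with the one before it, so the same genes are high or low through the same arrays. The median difference of the 94 genes, Ro minus Control, was -0.02, against 0.26 over all 12345 genes tested. Of the 94, 87 differed by under 0.5, against 55.1% of all genes, again not matched for signal. Limma called 0 of 90 members and 0% of 29531 probe sets, and at an unadjusted p under 0.05 there were 0 members and 8.54% of probe sets. The lowest adjusted p among members was 0.525, for Cox7a2l (0.54, SE 0.30). Its Ro arrays lay above its Control arrays without overlap in centred levels, and overlapped them under the other scalings. Control replicate 2 minus Control replicate 1 was -0.54 for this gene. The 95% interval lay within a 2-fold change for 52 of 90 members. Ro arrays were above Control arrays without overlap for 13 of 94 (37% of all genes) and below for 1 (6.45%). After quantile normalization these counts were 0 above (17.9%) and 29 below (14.2%), with a median difference of -0.21. With a common trimmed mean they were 0 above (16.6%) and 29 below (18.2%). In the values as deposited they were 25 above (31.8%) and 5 below (7.72%), so the sign of the list's difference was set by the scaling. Beside all genes, the list stood lower under each scaling. Mean Ro values were higher for 43 of 94 genes in centred levels (67.2% of all genes) and for 12 after quantile normalization (51.1%). They were higher for 54 in the values as deposited (71%) and for 6 with a common trimmed mean (48.2%). Under all 4 scalings 0 of 94 stayed above (14.6%) and 1 stayed below (5%), the dim Ndufa4l2.

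Complex II was the complex with the highest median difference between Ro and Control, 0.14, and complex IV the one with the lowest, -0.21, in centred levels. After quantile normalization the medians were -0.18 for both. Against Control replicate 1 alone the order was another, with medians from 0.26 for complex V to 0.32 for complex I, and complex IV was at 0.27. Sdhc had signals of 721 and 908 in Ro and 650 and 521 in Control, a difference of 0.41 (SE 0.30), and Sdha differed by 0.40 (SE 0.27). Both had Ro levels above Control levels without overlap, and against Control replicate 1 alone they differed by 0.49 and 0.27. The 2 probe sets of Sdhc gave -0.13 and 0.41 with both Control arrays, so its direction rests on the choice of probe set. The 3 of Sdha gave 0.14 to 0.40. Uqcrc1, a core protein of complex III, had 1817 and 1910 in Ro and 1725 and 1424 in Control, a difference of 0.18 (SE 0.26), and of 0.28 against Control replicate 1 alone. Ndufaf4 had the most negative difference, -1.22 (SE 0.76), with overlap, and its Control arrays differed by more than the groups did. Against Control replicate 1 alone it was -0.12. Against Control replicate 1 alone, mean Ro levels were higher for 87 of 94 genes (median 0.28), and against Control replicate 2 alone for 22 of 94 (median -0.29), while 77.7% and 58.2% of all genes were higher. In centred levels the median over all genes against Control replicate 1 was 0.29, beside 0.28 for the members. The direction against Control replicate 1 turned with the scaling. After quantile normalization mean Ro values were higher for 35 of 94 (median -0.03), against 56.2% of all genes (median 0.05). With a common trimmed mean they were higher for 43 of 94 (median -0.02), against 49.6% of all genes (median -0.004). Both Ro arrays were above Control replicate 1 for 79 of 94 genes (60.5% of all genes) and below it for 1 (11.1%), and after quantile normalization above it for 14 (33.7%) and below it for 37 (23.4%). Without Control replicate 2 the 95% interval lay within a 2-fold change for 61 of 90. Without Control replicate 1, limma called 10 members, all lower in Ro, while of all probe sets it called 4.51% as lower and 13.4% as higher. They were the 5 named for RA together with Ndufaf4 (-2.31), Ndufab1, the mitochondrial acyl carrier protein (-1.12), Ndufa12 (-1.11), Uqcr11 (-1.01) and Cox5a (-0.89). Without Control replicate 2, 0 members were called, and 0% of all probe sets.

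Neighbouring pathways give the setting for these values. The lists were chosen with earlier results of these data known, and their calls were 0 in each list and comparison in limma. Counts without overlap are read here against the 7.96% of all genes above and 32.3% below in centred levels, and the 16.4% above and 16.8% below after quantile normalization. The 17 measured genes of the tricarboxylic acid cycle had a median difference of -0.13 between RA and Ro, with 7 genes below and 0 above without overlap. After quantile normalization the median was 0.06, with 2 below and 4 above, so the list had no direction that held under both scalings. Among them Dlst, a subunit of the oxoglutarate dehydrogenase complex, had signals of 385 and 553 in RA, against 744 and 670 in Ro, and Idh2, a mitochondrial isocitrate dehydrogenase, 432 and 508 in RA, against 586 and 800 in Ro. The RA arrays of both genes were below the Ro arrays. Of 32 assembly and copper delivery genes, 7 were below and 3 above in centred levels, and 1 was below and 7 above after quantile normalization. Sco1, a copper chaperone of complex IV, had 46.7 and 46.3 in RA, against 112 and 72.6 in Ro. Of 20 genes for mitochondrial gene expression and its regulators, 7 were below and 0 above, a share close to that of all genes, and after quantile normalization 2 were below and 1 above. One of the 7 was Ppargc1b, a coactivator of mitochondrial genes, with 92.2 and 154 in RA, against 157 and 288 in Ro.

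Cyc1, the cytochrome c1 of complex III, which the prefixes do not catch, had 1240 and 1406 in RA, 1675 and 1543 in Ro, and 1182 and 1973 in Control. Its RA arrays lay below its Ro arrays. The 15 measured glycolysis genes had a median difference of 0.14 between RA and Ro, with 3 above and 1 below. After quantile normalization the median was 0.26, with 10 above and 0 below. Tpi1, a glycolytic isomerase, had 2584 and 2545 in RA, 1474 and 1548 in Ro, and 1926 and 5607 in Control, and Bnip3, a mitochondrial outer membrane protein known as a target of hypoxia signalling, 674 and 619 in RA, 307 and 283 in Ro, and 407 and 3258 in Control. Both were highest on Control replicate 2, next highest in RA and lowest in Ro. On Control replicate 2 the glycolysis list stood 1.79 above Control replicate 1, the 46 cytosolic ribosome genes 0.91, the 76 mitochondrial ribosome genes 0.52 and the tricarboxylic acid cycle genes -0.05, beside 0.59 for the respiratory chain genes, and the 27 cell cycle genes stood -1.84 against it. After quantile normalization the ribosome gaps were 0.05 for the cytosolic and 0.54 for the mitochondrial list, beside 0.32 for the respiratory chain genes. The part of these lists' shifts in the respiratory chain values was not tested.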

How the data were processed

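Transcripts of cultured mouse CD4+ T cells were measured on 6 arrays, 2 each for RA, Ro and Control, grouped by their titles. The authors deposited an intensity for each probe set, not logged. MAS5 produced it according to the submitters' processing notes, with version and scaling target unstated. Trimmed means (2% at each end) ran from 115 to 178, so the arrays were not on a common scale.

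Genes were named from the platform annotation (34945 probe sets with 1 symbol, 932 with several, 9160 with none, and 64 controls left out), and RefSeq changed 0 of the 94 symbols. For 18 genes the probe set is of a kind that can cross-hybridise. Differences were tested on log2(signal + 3.00), with each array centred on its median, in R 4.3.3 with limma 3.58.1 (lmFit, eBayes with an intensity trend). The pseudocount of 3.00, the 20th percentile of all values, shrinks differences of dim genes. Tests were two-sided. RA minus Ro was fitted on the 4 RA and Ro arrays, and both comparisons with Control on all 6, over probe sets above the 40th percentile of their array on at least 2 arrays of the fit. The threshold was a Benjamini-Hochberg adjusted p of 0.05 over all probe sets tested. Shares given for all genes use 1 probe set a gene and only genes that passed this filter. Counts out of 94 also include the members that did not pass it. With 2 arrays a group, an exact permutation test of 1 gene cannot go below a two-sided p of 0.333, so none was run. The fits were also run on simulated data, with the same noise for every gene, no array standing apart and changes larger than most reported here. That run checked the code and does not show how well small differences are found in these arrays.

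The members and lists were chosen with earlier results of these data known. Genes named were those past the threshold, up to 3 per complex and comparison with the largest difference without overlap, catalytic subunits, isoform pairs, assembly factors, and up to 2 per neighbouring list. Cyc1, and genes picked by their excess on Control replicate 2, were chosen with their values in view. The brightest and dimmest genes were not ranked, since probes differ. Alternatives were other pseudocounts, scalings and filters, gene means, no cross-hybridising probe sets, no trend, a replicate block, other array sets in the fit, and leaving out each array.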

Additional observations from a re-analysis of the deposited data

How the results depend on the processing

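Limma called 0 members in all 3 comparisons under every pseudocount, scaling, filter, probe set choice, trend setting and array set tried, except where 1 array was left out. Leaving out each array in turn gave 0 to 1 called members for RA minus Ro (1 without Ro replicate 1), 0 to 5 for RA minus Control and 0 to 10 for Ro minus Control (5 and 10 without Control replicate 1), and the cause was not tested. The member medians then ran from -0.10 (without RA replicate 1) to 0.23 for RA minus Ro, from -0.24 to 0.34 for RA minus Control and from -0.29 to 0.28 for Ro minus Control, with the extremes of both Control comparisons set by which Control array was left out. Scaling to a common trimmed mean moved the Ro minus Control median to -0.32. Calls among all probe sets for RA minus Ro were 8, and numbered 10 with the pseudocount at the median, 5 with a pseudocount of 1 or the stricter filter, 4 with no filter, 3 with gene means, 12 as deposited, 0 without a trend, in the fit of all 6 arrays or without either RA array, and 923 and 501 without Ro replicate 1 and 2. The labels do not say what a replicate number marks, and the numbers were not taken to pair the arrays. The gaps between replicates correlated at 0.28 for RA and Ro, 0.005 for RA and Control and -0.03 for Ro and Control. Over the members alone these values were 0.33, 0.07 and -0.06. Whether the RA and Ro arrays were paired was not tested. With the replicate number as a block, limma called 0 members in each comparison (lowest adjusted p 0.266 for RA minus Ro), and 148 probe sets for RA minus Ro. The 95% interval lay within a 2-fold change for 84 of 90 members in RA minus Ro, 56 in RA minus Control and 52 in Ro minus Control, so a larger change cannot be set aside for the rest.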
